A study of Mus musculus with 8 samples.

Results

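The 9 genes described here, Psca, Ly6a, Ly6d, Ly6e, Ly6g6c, Lypd3, Plaur, Thy1 and Cd59a, encode small proteins held on the cell surface by a glycosylphosphatidylinositol (GPI) lipid anchor. They were chosen by gene symbol and by their measured values in the comparison of tumour stages, so their stage differences are given as a description and carry no test. The platform annotation gave a probe set to 8 of the 9. No probe set carried the symbol Ly6a, which encodes the stem cell antigen Sca-1, and it was not analysed here. The 8 genes stand among 17097 genes measured.

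Expression was measured on 8 single-colour Affymetrix arrays of cells sorted for α6-integrin and CD34 out of squamous cell carcinomas (SCC) of mouse skin, which arise in keratinocytes. The strain is given as FVB/C57/Bl6, and the tumours came from mice with the K14-HPV16 transgene, in which the keratin 14 promoter drives papillomavirus genes in basal keratinocytes. This transgene is common to both stages, per the series design. Tumours arose spontaneously or after the carcinogen DMBA and the promoter TPA, and the origin of each lineage is unstated. They were engrafted at their own site in nude mice, which lack most T cells but keep other immune, endothelial and stromal cells, and were then passed from host to host. Each of the lineages OT7, OT14 and OT15 gave cells of well differentiated SCC (WD-SCC) and, at a later passage, of poorly differentiated SCC, written PD/S-SCC in the titles and PD-SCC here. OT7 gave 2 arrays per stage and the others 1, so that each stage had 4 arrays from 3 lineages. The labels do not state ages, passage numbers or whether tumours were pooled. The arrays are called biological replicates, 1 of them (from OT7 WD-SCC) without a number and none with any mention of separate tumours, and the variation that the p-values rest on may thus be partly technical. Precision is set by how few arrays there are.

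Most of these proteins share the Ly6/uPAR domain, a compact fold of loops held together by disulfide bonds. Many of the genes lie side by side as products of gene duplication. In stratified epithelia Ly6d, Lypd3 and some of their relatives are made mainly by keratinocytes that have begun to differentiate, Plaur binds the protease urokinase at the surface of migrating cells, and Cd59a blocks the last step of complement attack. Thy1 has an immunoglobulin-like domain in place of the Ly6/uPAR fold and in the mouse is found on T cells, fibroblasts, neurons and some epidermal cells.

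RefSeq promoter sequences (build GRCm38.p6) were given for 4 of the 9 genes, Lypd3, Ly6g6c, Plaur and Cd59a. The windows of Lypd3 and Ly6g6c are shown because both genes were far lower in PD-SCC. Each is the 250 bases before the start on the plus strand, and capitals mark matches to the motifs searched.
Lypd3, chr7:24636320-24636569: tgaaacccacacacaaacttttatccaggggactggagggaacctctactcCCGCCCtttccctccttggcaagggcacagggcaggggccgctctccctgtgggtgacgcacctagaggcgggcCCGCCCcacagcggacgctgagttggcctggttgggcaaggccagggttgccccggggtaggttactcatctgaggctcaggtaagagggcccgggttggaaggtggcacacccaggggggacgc
Ly6g6c, chr17:35067075-35067324: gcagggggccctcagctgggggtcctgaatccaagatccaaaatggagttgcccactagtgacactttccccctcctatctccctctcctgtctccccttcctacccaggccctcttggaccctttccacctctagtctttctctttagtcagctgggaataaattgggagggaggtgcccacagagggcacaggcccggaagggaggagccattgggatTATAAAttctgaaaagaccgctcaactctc
A short window is shown for Plaur, whose stages overlapped at a high level, around its AP-1 match, 69 bases before the start used in the table.
Plaur, chr7:24462403-24462431: acccctggagcTGACTCActctttagcaa

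The search covered both strands for the AP-1 motif TGANTCA, the GC box GGGCGG, the TATA box TATAAA and the E-box CAGGTG. Lypd3 held 2 GC box matches, both read on the minus strand, and no other match. Ly6g6c held 1 TATA box match, 30 bases before its start. Plaur held 1 AP-1 match and 3 GC box matches, and Cd59a held none of the 4 motifs. Of 32851 promoter windows of this length, 6.75% held the AP-1 motif, 32.7% the GC box, 12.4% the TATA box and 17.2% the E-box. No match in these windows overlapped a match to another motif, and a match describes the sequence alone.

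Values are log2 units on the authors' RMA scale. The medians of the 8 arrays ranged from 3.66 to 3.77. Genes were read against the brightest of 15 bacterial control probe sets, 3.82 to 4.37 in WD-SCC and 3.61 to 3.81 in PD-SCC, called the control below, and no expression can be told from background at that level. A GC-rich nonspecific control measured 8.002 to 8.53 in WD-SCC and 6.66 to 7.08 in PD-SCC, so this background was higher in WD-SCC, and its part in the results was not tested. Of all 17097 genes, 12.6% passed an adjusted p of 0.05 between stages (limma, lineage as a block), 4.81% lower and 7.78% higher in PD-SCC. That split depended on scaling, with 1331 higher and 823 lower as deposited, 799 and 930 after cyclic loess, and 1150 and 1205 after scaling to the 75th percentile.

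Of the 8 measured genes, 5 were lower on every PD-SCC array than on any WD-SCC array and 3 overlapped between stages. Psca, Lypd3, Ly6d, Ly6g6c and Thy1 formed the first group, and Ly6e, Plaur and Cd59a the second. Over all genes, 13.3% were lower in PD-SCC without overlap and 10.8% higher. The genes were picked with this contrast in view, and nothing is read from the difference between those shares. These are sums over sorted cells, in which fewer cells of a type and less RNA per cell cannot be told apart.

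**Figure D1:**
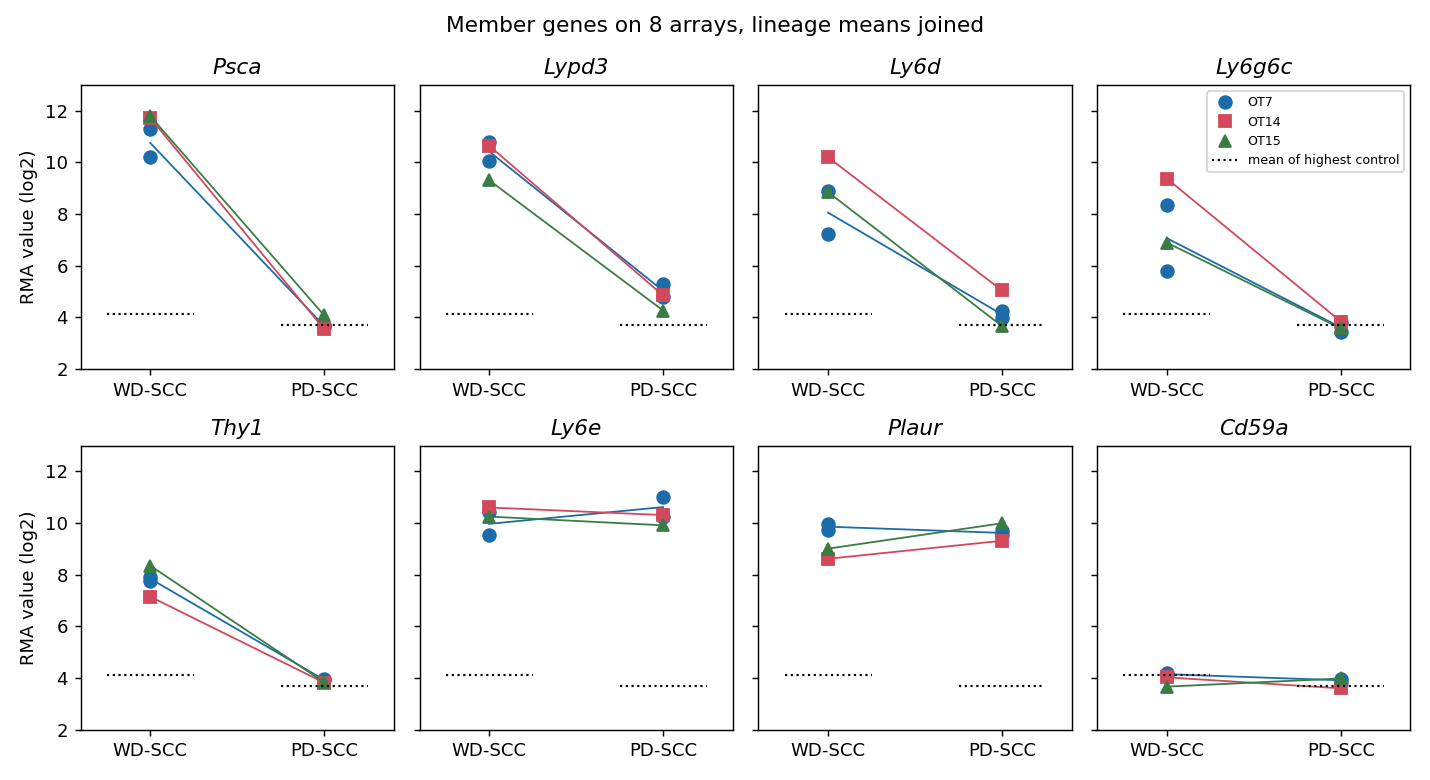
RMA values (log2) of the 8 measured genes on each array, by stage on the x axis, with 1 symbol and colour per lineage, lines joining lineage means and dotted lines at the stage mean of the highest bacterial control. Psca, Lypd3, Ly6d, Ly6g6c and Thy1 lie far lower in PD-SCC in all 3 lineages, Ly6e and Plaur stay above 8.6 on all 8 arrays, and Cd59a lies near the control in both stages.

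Psca, prostate stem cell antigen, a surface protein of several epithelia, had the widest gap between stages. In WD-SCC it measured 10.21 on the unnumbered OT7 array, 11.31 on OT7 array 2, 11.73 in OT14 and 11.80 in OT15. In PD-SCC it measured 3.70 and 3.62 on the OT7 arrays, 3.54 in OT14 and 4.07 in OT15. The lowest WD-SCC array thus stood 6.13 above the highest PD-SCC array, and in PD-SCC the OT15 array alone was above its bacterial control. The stage means were 11.26 ± 0.73 and 3.73 ± 0.24 (SD, n = 4), a difference of -7.53 ± 0.31 (SE), its size limited by the control in PD-SCC. OT7 had the smallest difference, at -7.10, followed by OT15 at -7.72 and OT14 at -8.19.

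Lypd3 encodes C4.4A, a relative of the urokinase receptor found above the basal layer of stratified epithelia. It measured 10.07 and 10.78 on the OT7 WD-SCC arrays, 10.64 in OT14 and 9.31 in OT15, against 5.27 and 4.78, 4.85 and 4.26 in PD-SCC. All 4 PD-SCC arrays remained above their bacterial control, and OT15 was lowest in each stage. The difference was -5.41 ± 0.22 (SE), or 42.5-fold, and it varied little between lineages, from -5.05 in OT15 to -5.80 in OT14.

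Ly6d, a keratinocyte surface antigen also used to mark early B lineage cells, measured 7.22 and 8.88 on the OT7 WD-SCC arrays, 10.20 in OT14 and 8.85 in OT15. In PD-SCC it measured 4.25 and 3.97 in OT7, 5.04 in OT14 and 3.66 in OT15. OT14 was highest in both stages, while OT15 in WD-SCC lay between the OT7 arrays and so was not separated from OT7. The stage means were 8.79 ± 1.22 and 4.23 ± 0.59 (SD, n = 4), with a difference of -4.56 ± 0.44 (SE), or 23.6-fold. OT7 differed by -3.94 and the other lineages by -5.16 (OT14) and -5.19 (OT15), and 3 of 4 PD-SCC arrays were above the control. The OT15 PD-SCC array was under it, so the size in that lineage is limited by the control.

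Ly6g6c, a family gene of the major histocompatibility complex region, had the widest spread among WD-SCC arrays. It measured 5.79 and 8.33 in OT7, 9.37 in OT14 and 6.89 in OT15, a range of 3.58, and then 3.41 and 3.80, 3.83 and 3.57 in PD-SCC. The order of the WD-SCC arrays was that of Ly6d, with the unnumbered OT7 array lowest and OT14 highest. The difference was -3.94 ± 0.66 (SE), with -3.46 in OT7, -5.54 in OT14 and -3.32 in OT15. In PD-SCC OT7 array 1 and the OT15 array were under the control, so the sizes in those lineages are limited by it.

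Thy1 encodes the CD90 glycoprotein. It measured 7.93 and 7.77 on the OT7 WD-SCC arrays, 7.15 in OT14 and 8.35 in OT15, and then 3.95 and 3.91, 3.82 and 3.83 in PD-SCC. The PD-SCC arrays spanned only 0.13 and all lay just above their controls. The difference was -3.92 ± 0.19 (SE), or 15.2-fold, with -3.92 in OT7, -3.33 in OT14 and -4.52 in OT15. These sizes are limited by the control in PD-SCC. Among WD-SCC arrays OT14 was lowest for Thy1 and highest for Ly6d and Ly6g6c.

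Ly6e, which is induced by interferon and limits entry of some viruses, was high throughout. Its WD-SCC arrays measured 9.53 and 10.42 in OT7, 10.61 in OT14 and 10.25 in OT15, and its PD-SCC arrays 10.23 and 11.01, 10.31 and 9.92. The stages overlapped, with a difference of 0.17 ± 0.33 (SE). OT7 was higher in PD-SCC by 0.65, while OT14 and OT15 differed by -0.29 and -0.34. The overall sign turned after cyclic loess (-0.18), and when the unnumbered OT7 WD-SCC array (-0.11) or OT7 PD-SCC array 2 (-0.09) was left out. No direction can be given for Ly6e.

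Plaur, the urokinase receptor, was likewise high in both stages. It measured 9.75 and 9.97 on the OT7 WD-SCC arrays, 8.62 in OT14 and 9.01 in OT15, and 9.69 and 9.55, 9.32 and 9.99 in PD-SCC. Both OT7 PD-SCC arrays lay below both OT7 WD-SCC arrays, while OT14 and OT15 were higher in PD-SCC, by 0.70 and 0.98. Over all lineages the difference was 0.30 ± 0.25 (SE), and -0.06 after cyclic loess. Plaur and Lypd3 encode related proteins, and of the pair only Lypd3 was separated between stages.

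Cd59a, the complement inhibitor, lay at the level of the controls. It measured 4.18 and 4.11 in OT7, 4.02 in OT14 and 3.67 in OT15 in WD-SCC, and 3.97 and 3.86, 3.60 and 3.98 in PD-SCC, above the control on 2 and 3 of 4 arrays. Its other probe set was dimmer still, between 3.05 and 3.49 on all 8 arrays. The difference of -0.14 ± 0.14 (SE) is thus one between values near background.

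**Figure D2:**
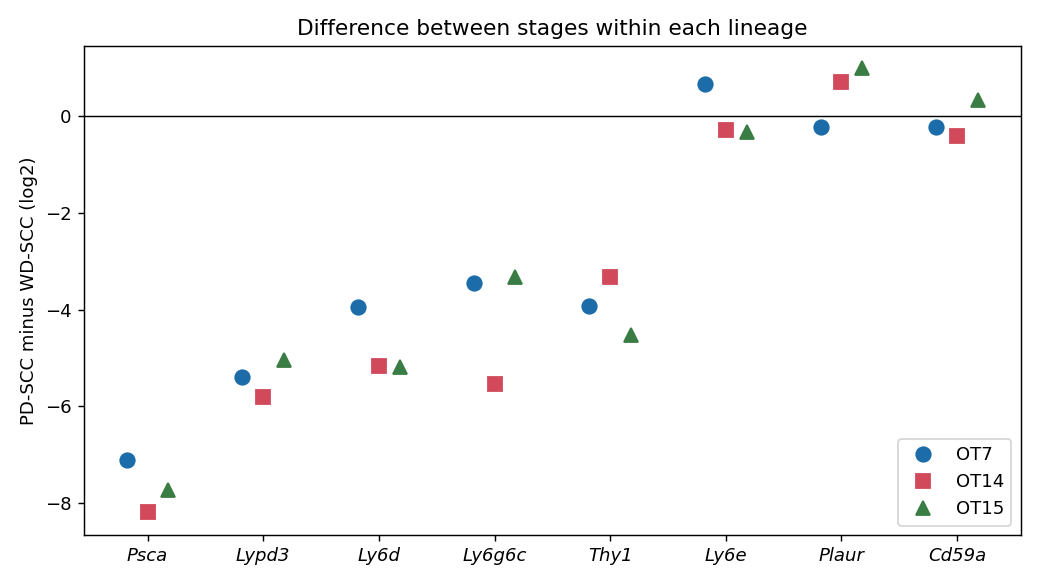
PD-SCC minus WD-SCC difference (log2) within each lineage for the 8 measured genes, with the OT7 value from the means of 2 arrays per stage and the others from 1 array each. All 3 lineages lie at or under -3.32 for Psca, Lypd3, Ly6d, Ly6g6c and Thy1, and on both sides of 0 for Ly6e, Plaur and Cd59a.

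The lineage difference beside stage is a contrast the choice of the genes did not use. None of the 8 genes passed it (limma F test of 2 lineage coefficients, adjusted p of 0.641 for Lypd3 to 0.975 for Ly6e). Over all genes 0% passed, with 1251 genes, or 7.32%, at an unadjusted p under 0.05. Of the 8 genes Lypd3 alone was under it (unadjusted p = 0.0313 in the limma fit), with stage-balanced means of 7.73 in OT7, 7.75 in OT14 and 6.79 in OT15. Ly6d came next (unadjusted p = 0.0718 in the limma fit), at 6.08, 7.62 and 6.25. With 4 residual degrees of freedom this does not show that the lineages are alike.

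Over the 8 arrays the 5 lower genes correlated with each other at 0.834 (Ly6g6c with Thy1) to 0.978 (Psca with Thy1), which describes mainly the shared step between stages. Ly6e, Plaur and Cd59a correlated with those 5 at -0.55 to 0.45. By Pearson correlation over the 8 arrays, the genes most like Psca were Sprr2f (0.9995), Cldn4 (0.999) and Tmem40 (0.999), and 186 genes were above 0.95. Those most like Lypd3 were Krt5, Il1rn and Sprr1b (0.993 to 0.994), and those most like Ly6d were Evpl, Bspry and Krt6b (0.984 to 0.988). Ly6g6c was most like Llgl2, Ovol1 and Ube2g1 (0.991 to 0.992), and Thy1 most like Sntg2, Fxyd3 and Foxq1 (0.990 to 0.993), of which Sntg2 was under the control on all 8 arrays. Ly6e had 3 genes above 0.95, Nfe2l1, Atxn2 and Marchf2, and Plaur had 1, Cycs, followed by Ranbp1 and Rrp9. Cd59a, near background, had none, its closest being Gja10 at 0.916, then 9930104L06Rik, both under the control on all 8 arrays, and Tbc1d2. The arrays share their normalization and fall into 2 stages, so these values are a description.

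Other genes of the Ly6/uPAR family were next set beside them. Of 39 listed, 24 had a probe set, of which 2 fell and 0 rose in PD-SCC (8.33% called against 12.6% of all genes). Their median difference was -0.37 against -0.06 over all genes, and 22 of the 24 differences were negative. At or under the control on all 8 arrays were 7 of them, whose signs come from background values. The share of all genes with a negative difference was not counted, so nothing is read from the count of signs. Ly6c1, an antigen of monocytes, lymphocytes and endothelial cells, fell from 7.66 ± 1.53 to 5.13 ± 0.61 (SD, n = 4, adjusted p = 0.0276, limma). Its stages overlapped, since the OT15 WD-SCC array at 5.86 was level with OT7 PD-SCC array 2 at 5.87, and its probe set may also read the near-identical Ly6c2. Ly6m fell as well and was at least 2.03-fold lower (4.72 ± 0.71 to 3.15 ± 0.09, SD, n = 4, adjusted p = 0.0257, limma), with every PD-SCC array under the control.

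Neither call was firm. Ly6c1 missed the threshold without the lineage block (adjusted p = 0.0603, limma), with lineage as a random block at an estimated correlation (0.0569), with the OT7 arrays averaged (0.0722), and without OT14 (0.0760), OT7 WD-SCC array 2 (0.0534) or OT7 PD-SCC array 1 or 2 (0.0785 and 0.0818). Ly6m missed it with the OT7 arrays averaged (0.0616) and without OT14 (0.0764), OT15 (0.0792), OT7 WD-SCC array 2 (0.0713) or OT7 PD-SCC array 1 or 2 (0.0648 and 0.0682).

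Psca, Ly6a, Ly6d and Ly6e lie on 1 chromosome with 15 other listed family genes. Of these 19 genes 14 were measured, and Psca, Ly6d and Ly6e were 3 of them. In chromosomal order from Psca, Slurp1, which encodes a secreted keratinocyte protein, differed by -0.49 and Lypd2 by -0.03. Lynx1, a modulator of nicotinic acetylcholine receptors that flanks Ly6d, differed by -1.04 (adjusted p = 0.136, limma), and Ly6k by -1.48. Past Ly6m came Ly6e and Ly6i, the last under the control on every array. Of the 11 measured family genes there that are not among the 9 genes, Ly6m and Ly6c1 were past the threshold, beside 12.6% of all genes.

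**Figure D3:**
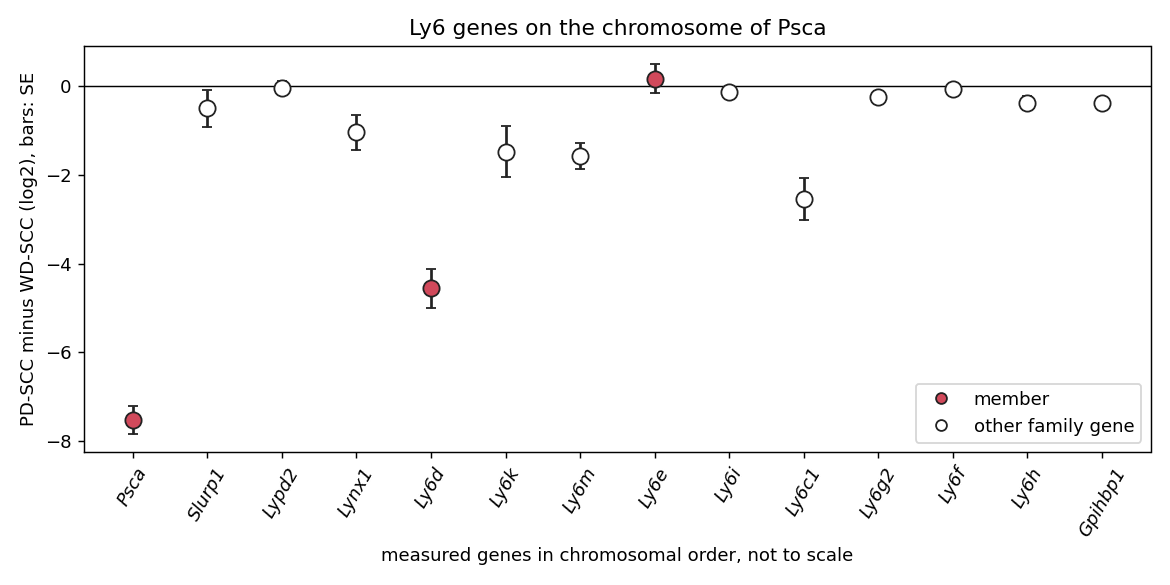
PD-SCC minus WD-SCC difference (log2, bars are the SE of the limma fit over 8 arrays) of the 14 measured Ly6 genes on the chromosome of Psca, in chromosomal order without scale, with genes of the set filled and other family genes open. Psca at -7.53 and Ly6d at -4.56 lie far below the nearest measured family genes, Slurp1 at -0.49 and Lynx1 at -1.04, while Ly6e is at 0.17. The genes of the set were picked with this contrast in view, so the gap is a description. Slurp1 was above the control on 2 of 4 WD-SCC and 3 of 4 PD-SCC arrays.

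Beside the others, Ly6g6d next to Ly6g6c differed by -0.45 and was above the control on 1 array per stage, and Tex101 next to Lypd3 differed by -0.54. Pinlyp, a secreted family gene nearest to Plaur, stood at 4.61 to 8.02 in WD-SCC and under the control on each PD-SCC array (at least 5.04-fold lower, adjusted p = 0.0788, limma). It passed the threshold with the filter on dim genes (0.0248), scaling to the 75th percentile (0.0483) and a trended and robust prior (0.0413). Pate4 and Lypd6, the closest measured relatives on the chromosomes of Thy1 and Cd59a, differed by -0.02 and 0.13. These are values near background, since Pate4 was under the control on every array and Lypd6 was above it on 1 PD-SCC array alone.

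Other proteins with a GPI anchor went in both directions. Of 75 measured of 90 listed, 6 rose and 4 fell, 13.3% against 12.6% of all genes, with a median difference of -0.15. Cd24a, a short mucin-like surface protein of epithelial and immature cells, fell from 8.86 ± 0.25 to 3.58 ± 0.39 (SD, n = 4, adjusted p = 0.000213, limma). Gfra2, a co-receptor for the neurotrophic factor neurturin, rose from 4.27 ± 1.16 to 10.68 ± 0.58 (adjusted p = 0.00405, limma), although 2 of 4 WD-SCC arrays were not above the control. Gpc4, a heparan sulfate proteoglycan of the glypican family, rose by 2.08 ± 0.19 (SE, adjusted p = 0.0049, limma). These 3 calls held under all 16 alternatives tried, with the Gfra2 difference at 6.41, and at 4.07 as the mean of its probe sets.

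The enzymes that build, attach and remodel the anchor gave 2 that rose and 2 that fell of 28 measured and 35 listed, 14.3% called against 12.6% of all genes, with a median difference of 0.00. Pgap2, which exchanges the lipid part of the anchor, fell from 7.04 ± 0.34 to 5.13 ± 0.22 (SD, n = 4, adjusted p = 0.00466, limma). The call held under every alternative, and its difference of -1.92 was -0.85 as the mean of its probe sets. Mpdu1, needed to use dolichol-linked mannose, fell by 1.28 (adjusted p = 0.0164, limma, and 0.0536 or 0.0555 without OT7 PD-SCC array 1 or 2). Gpld1, a phospholipase that cleaves the anchor, rose by 1.81 (adjusted p = 0.0206, limma, and 0.0604 to 0.0715 without OT15, OT7 WD-SCC array 2 or either OT7 PD-SCC array).

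Among ligands and partners of the urokinase receptor, 2 of 18 measured genes of 20 listed rose and 2 fell (22.2% called against 12.6% of all genes), with a median difference of -0.21. Plau, urokinase itself, measured 7.85 to 9.41 in WD-SCC and 7.86 to 8.79 in PD-SCC (difference -0.07, adjusted p = 0.911, limma). Plat, the tissue-type plasminogen activator, fell from 9.51 ± 1.06 to 5.95 ± 0.48 (SD, n = 4, adjusted p = 0.0085, limma, and 0.0521 with the OT7 arrays averaged). Serpinb5, the serpin maspin of epithelial cells, was at least 5.52-fold lower (adjusted p = 0.0203, limma, and 0.0623 to 0.0662 without OT7 WD-SCC array 2 or either OT7 PD-SCC array). Its difference was -3.04, and -1.61 as the mean of its probe sets. Mrc2, a collagen receptor that binds the urokinase receptor, rose by 2.23 (adjusted p = 0.0321, limma, and 0.0708 to 0.0946 without OT14, OT15, OT7 WD-SCC array 2 or OT7 PD-SCC array 2). It also missed the threshold after cyclic loess (0.0548) and with the OT7 arrays averaged (0.0878). As the mean of its probe sets it rose by 1.41.

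Of 16 measured complement genes and regulators of 21 listed, the setting of Cd59a, 2 fell and 0 rose (12.5% called against 12.6% of all genes), with a median difference of -0.22. None of the terminal genes Hc, C6, C8a, C8b, C8g and C9 passed, and Hc, C8a and C9 were under the control on every array. Serping1, the inhibitor of the first complement protease, was at least 16.6-fold lower (adjusted p = 0.0277, limma) and C4b, a central complement component, at least 22.7-fold lower (adjusted p = 0.0438, limma). The C4b difference was -6.49 in OT7 and -5.66 in OT15 but -0.53 in OT14. Neither held without OT15 (adjusted p = 0.0714 and 0.121), OT7 WD-SCC array 2 (0.0694 and 0.108), OT7 PD-SCC array 1 (0.0856 and 0.123) or OT7 PD-SCC array 2 (0.0835 and 0.120), and C4b was also lost without the unnumbered OT7 WD-SCC array (0.0851).

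Markers of keratinocytes were lower alongside the 5 lower genes. Of 14 markers of differentiating keratinocytes 7 fell and 0 rose (4.81% of all genes fell and 7.78% rose), and 4 (Krt1, Flg, Dsg1a and Dsc1) were under the control on every array. Their list mean was 6.34 to 7.47 on WD-SCC arrays and 3.80 to 3.87 on PD-SCC arrays. Of 8 basal markers 4 fell and 1 rose, with list means of 6.95 to 8.51 and 5.41 to 5.83. Krt5, the basal keratin that defines these cells, averaged 11.26 in WD-SCC and 4.16 in PD-SCC, and Itga6, a sort marker, 7.25 and 6.95. The other sort marker, Cd34, averaged 6.04 and 7.71, and on the OT15 WD-SCC array it lay under the control at 3.58. Itga6 was also lowest there, at 5.32 against 7.54 to 8.15 on the other WD-SCC arrays. The part of these shifts in the 5 differences was not tested.

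Fibroblasts and T cells can also carry Thy1. Of 12 fibroblast markers 0 passed in the limma fit (2 at an unadjusted p under 0.05), beside 12.6% of all genes. Their list means were 4.48 to 7.20 in WD-SCC and 5.33 to 6.26 in PD-SCC. The lowest fibroblast mean and the lowest Thy1 among WD-SCC arrays were both in OT14, and without OT14 the Thy1 difference was -4.12. The highest values did not coincide. The fibroblast mean was highest on the unnumbered OT7 array (7.20, Thy1 7.93), and Thy1 was highest in OT15 (8.35, fibroblast mean 6.04). From WD-SCC to PD-SCC in OT14 the fibroblast mean went from 4.48 to 6.26 and Thy1 from 7.15 to 3.82. Of 9 measured T cell markers 0 passed (1 at an unadjusted p under 0.05 in the limma fit), and their list means lay between 3.76 and 4.13 on all arrays. In lists this short a count of 0 is near the 12.6% of all genes, and nothing is read from it. Of the CD3 chains that define T cells, Cd3d was above the control on all 8 arrays and averaged 4.70 in WD-SCC and 4.11 in PD-SCC without overlap (adjusted p = 0.0851, limma). Cd3e was under the control on each WD-SCC array and reached 5.49 on OT7 PD-SCC array 1, and Cd3g was under it on all 8 arrays. The part of fibroblasts and T cells in the Thy1 values was not tested.

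Ly6c1 is also carried by blood and endothelial cells, which had been depleted before sorting. Of 13 measured haematopoietic markers 3 fell and 0 rose, beside 4.81% of all genes that fell, with list means of 4.65 to 5.52 in WD-SCC and 3.77 to 4.16 in PD-SCC. Those that fell were Cd68, from 7.76 to 4.97, Fcer1g, from 7.74 to 5.001, and Cd52, from 5.52 to 3.81, each above the control on all 4 WD-SCC arrays (adjusted p of 0.0141 to 0.0195, limma). Ptprc, the pan-leukocyte gene, was under the control on every array. Of 11 endothelial markers 3 fell (Tie1, Cldn5 and Egfl7) and 0 rose, with list means of 4.30 to 6.51 and 3.80 to 4.25. On the WD-SCC arrays the endothelial list ran from 4.30 on the unnumbered OT7 array through 5.64 in OT15 and 5.83 on OT7 array 2 to 6.51 in OT14. Ly6d and Ly6g6c had that order too, with Ly6d nearly level in OT15 (8.85) and on OT7 array 2 (8.88). The differentiating keratinocyte list had the same lowest and highest WD-SCC arrays, the unnumbered OT7 array (6.34) and OT14 (7.47). Between them it had OT7 array 2 (6.57) under OT15 (6.70). Psca, Lypd3 and Thy1 shared neither order. Ly6c1 ran otherwise, highest at 9.57 on the unnumbered OT7 array. The part of blood cells, endothelial cells or keratinocytes in these values was not tested.

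**Figure D4:**
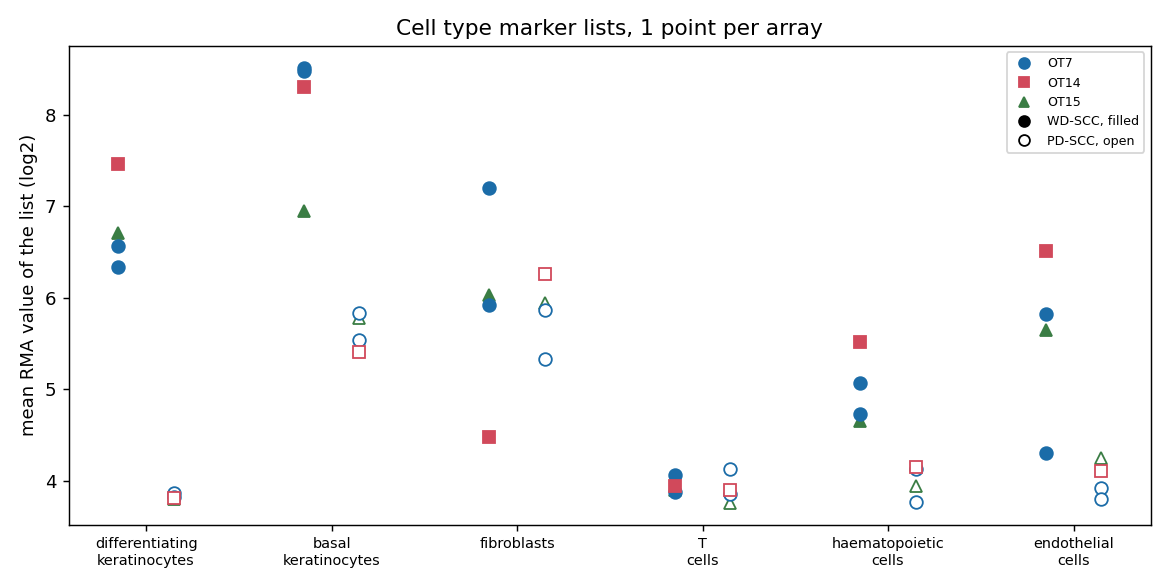
Mean RMA value (log2) of each cell type marker list, 1 point per array, WD-SCC filled and PD-SCC open, with 1 symbol and colour per lineage. Differentiating keratinocyte lists lie at 6.34 or more in WD-SCC and 3.87 or less in PD-SCC, T cell markers stay between 3.76 and 4.13, and fibroblast markers overlap between stages.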

How the data were processed

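The authors deposited a table of log2 expression for the 8 arrays, whose scale was inferred from its range (2.40 to 13.2). Per the submitters' processing notes, affy and RMA were used, without versions; other settings are not given in the sources here.

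The table held 45141 probe sets. In the platform annotation 28898 had a single symbol, 551 had several, 15588 lacked one and 104 were controls. Symbols were updated through RefSeq (99.3% matched), and each gene took its probe set with the highest mean, giving 17097 genes. Stage was fitted with limma 3.58.1 in R 4.3.3 (two-sided moderated test), lineage being a fixed block, and p-values were adjusted by Benjamini-Hochberg over all genes at 0.05. Lineages pair the stages per the series design; deviations from stage means correlated at -0.04 (OT7), 0.02 (OT14) and 0.06 (OT15). "At least N-fold" sets the bright stage against the higher of gene and highest control on each dim array. The fit was tested on simulated data. The 16 alternatives were no block, a random block, averaged OT7 arrays, a filter on dim genes, probe-set means, cyclic loess, 75th percentile scaling, a trended and robust prior and leaving out each array. Plots used Python 3.11.15 and matplotlib 3.10.9.

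The members and gene lists were chosen with earlier results of these data known. Beside the members, genes were named by rule: from each list the 3 of smallest p that passed and had 1 sign in every lineage, the nearest family gene, the 3 most correlated genes per member, and Itga6 and Cd34. Lypd2, Ly6k, Plau and single markers were named for position or role with their values seen.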

Additional observations from a re-analysis of the deposited data

Results flagged for a closer look

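Checked for opposite signs were the measured genes of the set, the list genes named by rule, the nearest family genes, Itga6 and Cd34. For 6 of these, every array of 1 lineage was higher in PD-SCC and every array of another lower. Their differences follow in the order OT7, OT14, OT15. Plaur (PD-SCC minus WD-SCC) stood at -0.24, 0.70 and 0.98. Cd59a, near background, stood at -0.24, -0.42 and 0.32. Among family neighbours, Slurp1 stood at 0.48, -1.38 and -1.55, Ly6g6d at -0.75, 0.046 and -0.35, and Lypd6 at 0.32, -0.065 and -0.055. Ly6g6d and Lypd6 were near background too, above the control on 1 array per stage and on 1 PD-SCC array alone. Itga6, a sort marker, stood at -1.67, -0.40 and 2.53. The lineage means of Ly6e and Pate4 also differed in sign, with OT7 arrays that overlapped between stages. Correlated genes, other markers and genes named for position were not checked this way. Some of them met the same rule, among them Lypd2 (0.20, -0.46 and -0.05) and Cycs (-0.40, 0.73 and 1.33). These differences between lineages were not tested.

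Cd34 on the OT15 WD-SCC array stood at 3.58, apart from the other 3 WD-SCC arrays at 6.72 to 7.002. It was the 1 such array in 62 groups of 4 examined, where chance gives about 1 in 20. Itga6, the other sort marker, was also lowest on the OT15 WD-SCC array, at 5.32 against 7.54 to 8.15, though not apart by the same measure. The 5 lower genes on that array were not apart from the rest of their group by this measure either.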

How the results depend on the processing

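The differences of Psca, Ly6d, Ly6g6c, Lypd3 and Thy1 kept their sign under all 16 alternatives, within -7.90 to -7.31, -5.01 to -4.35, -4.55 to -3.41, -5.79 to -5.27 and -4.18 to -3.72. No block, a random block, the filter, probe-set means and the trended prior could not change these values. Leaving out either array of OT15 gave the same stage estimate, as did either array of OT14. The genes were chosen on this contrast, so the kept signs are a description. Ly6e ranged from -0.18 to 0.34 and Plaur from -0.06 to 0.48. None of the 8 genes passed the lineage test (limma) under any alternative that fits lineage as a term. Without the replicate block (lineage left out) 2123 genes passed between stages, against 2154. With the OT7 arrays averaged, which leaves fewer samples, 401 passed, with 0 other Ly6/uPAR genes, 4 other GPI-anchored proteins, 1 anchor synthesis gene, 0 urokinase receptor partners and 0 complement genes. Cyclic loess gave 2 partners. The other Ly6/uPAR genes were 4 with scaling to the 75th percentile and 4 with the trended and robust prior, which also gave 16 other GPI-anchored proteins. For these 3 settings the cause was not tested. Leaving out each array in turn gave 886 to 1689 genes, 0 to 2 other Ly6/uPAR genes, 4 to 9 GPI-anchored proteins, 1 to 3 anchor synthesis genes, 1 to 4 partners and 0 to 2 complement genes. Cd59a was removed by the filter on dim genes and ranged from -0.30 to -0.05 over its 15 alternatives. With the OT7 arrays averaged Mpdu1 (adjusted p = 0.0942, limma), Gpld1 (0.114), Serpinb5 (0.106), Serping1 (0.109) and C4b (0.188) also missed the threshold. Signal near background limits the PD-SCC values of Psca, Ly6d, Ly6g6c, Thy1 and Cd59a.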
